A study of Rattus norvegicus with 48 samples.

Results

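The genes described here were chosen by symbol as those of the subunits of the oxidative phosphorylation (OXPHOS) complexes. A row of the deposited table was a member if its name began with Mt-nd, Mt-co, Mt-cyb or Mt-atp, or with Nduf (A, B, C, S or V and a digit), Uqcr, Cox4 to Cox8 or Atp5, or was Sdha, Sdhb, Sdhc or Sdhd. It also had to have a mean of at least 0.5 CPM (reads on a gene relative to all reads of the library) over the 48 libraries. Of its 30211 genes, 98 matched by name and 91 also reached the minimum, 13 of them encoded by mitochondrial DNA and 78 by nuclear DNA. The 7 that matched by name only were Ndufa1, Ndufs6, Cox6c-ps1, Cox7b2, Cox8b, Cox8c and Atp5pb. Ndufa1, Ndufs6 and Atp5pb averaged 0.0071, 0.051 and 0.20 CPM. The study used only uniquely mapped reads, and whether this lowered such values was not tested. All 91 members were among the 15890 genes tested. By symbol, complex I had 7 mitochondrial and 35 nuclear members, complex II had 4 nuclear members, complex III 1 and 8, complex IV 3 and 15, and complex V, the ATP synthase, 2 and 16. Ndufa4 is counted with complex I by its symbol, although its protein is now regarded as a subunit of complex IV. Atp5if1, an inhibitor of the ATP synthase, and Ndufa4l2, a paralog of Ndufa4, are likewise counted as subunits by symbol only.

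Complexes I to IV pass electrons from NADH and succinate to oxygen and, except for complex II, pump protons out of the mitochondrial matrix, and the ATP synthase uses the returning protons to make ATP. The mitochondrial genome is transcribed as long polycistronic RNAs from both strands, which are cut into the individual mRNAs, while each nuclear subunit has a promoter of its own and its protein is imported. In the brain neurons depend on this pathway for most of their ATP, whereas activated microglia and astrocytes lean more on glycolysis.

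RNA-seq libraries were made from mixed cortical cultures of Sprague-Dawley rat fetuses, 18 days of age, after 3 weeks in vitro, with 3 libraries in each of 16 groups. Control cultures received none of the agents. Other cultures received the HIV-1 protein Tat (residues 1-86, 6 ng/mL, 48 h), cocaine (25 µM, 24 h) or both (Tat-Cocaine), and the compounds 4OI (4-octyl itaconate, 250 µM), Amlexanox (25 µM), Tazemetostat (3 µM) or Senicapoc (1 µM) were each given for 48 h by themselves, together with Tat, or with Tat plus cocaine. The captions of the study describe cocaine as a further 24 h after the 48 h with Tat. Whether cultures without cocaine were kept for the same total time is not stated. 4OI is a cell-permeable ester of itaconate, Amlexanox inhibits the kinases TBK1 and IKKε, Tazemetostat inhibits the histone methyltransferase EZH2, and Senicapoc blocks the potassium channel KCa3.1. The vehicle of the Control cultures is not given in the sources used here. Nothing states whether the 3 libraries of a group came from separate cell preparations, so the p-values measure a spread between libraries. That spread was estimated for each gene over all 16 groups, not from the compared groups alone, so a wider spread in a single group is not reflected.

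Each library held 17.5 to 29.1 M reads on genes (M, mega). The labels name the cell type as neuron, but markers of several cell types were present in each library, with Map2 of neurons at 215 to 795 CPM, Gfap of astrocytes at 2231 to 7582 CPM and Aif1 of microglia at 28.7 to 488 CPM. Of the endothelial markers, Cldn5 reached at most 0.1003 CPM, Flt1 2.17 CPM and Cdh5 5.72 CPM. In such cultures fewer cells of a type and less RNA per cell cannot be told apart. Cocaine replicate 3 stood apart, with a sum of 6 oligodendrocyte markers of 25395 CPM against at most 2233 CPM in each other library. Of the tested comparisons this library enters only that of Cocaine with Control, beside the shared estimate of the spread. It also counts toward the minimum levels over all libraries and the range of the Mt-nd5 to Mt-nd1 ratio without Tat given below.

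Mitochondrially encoded subunits made up 4.42 to 11.5% of all reads on genes. Their summed level was 90500, 66962 and 56968 CPM in the 3 Control libraries and 50069, 45530 and 53864 CPM with Tat. The Tat libraries were thus all below the Control libraries, of which replicate 1 was the highest. Tat cultures had the lower mean in each of the 5 backgrounds (no compound and 4 compounds), and the decrease was from 71477 ± 17216 to 49821 ± 4173 CPM without a compound (SD, n = 3) and from 88704 ± 8715 to 82426 ± 12123 CPM with 4OI. In the 15 libraries without Tat the sum ranged from 56968 to 116711 CPM with a median of 82675 CPM, and in the 15 with Tat from 45530 to 95172 CPM with a median of 62603 CPM. The summed nuclear subunits ranged from 9391 to 11804 CPM (median 10787) without and from 8980 to 10751 CPM (median 9653) with Tat. Both ranges overlapped between cultures with and without Tat.

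**Figure D1:**
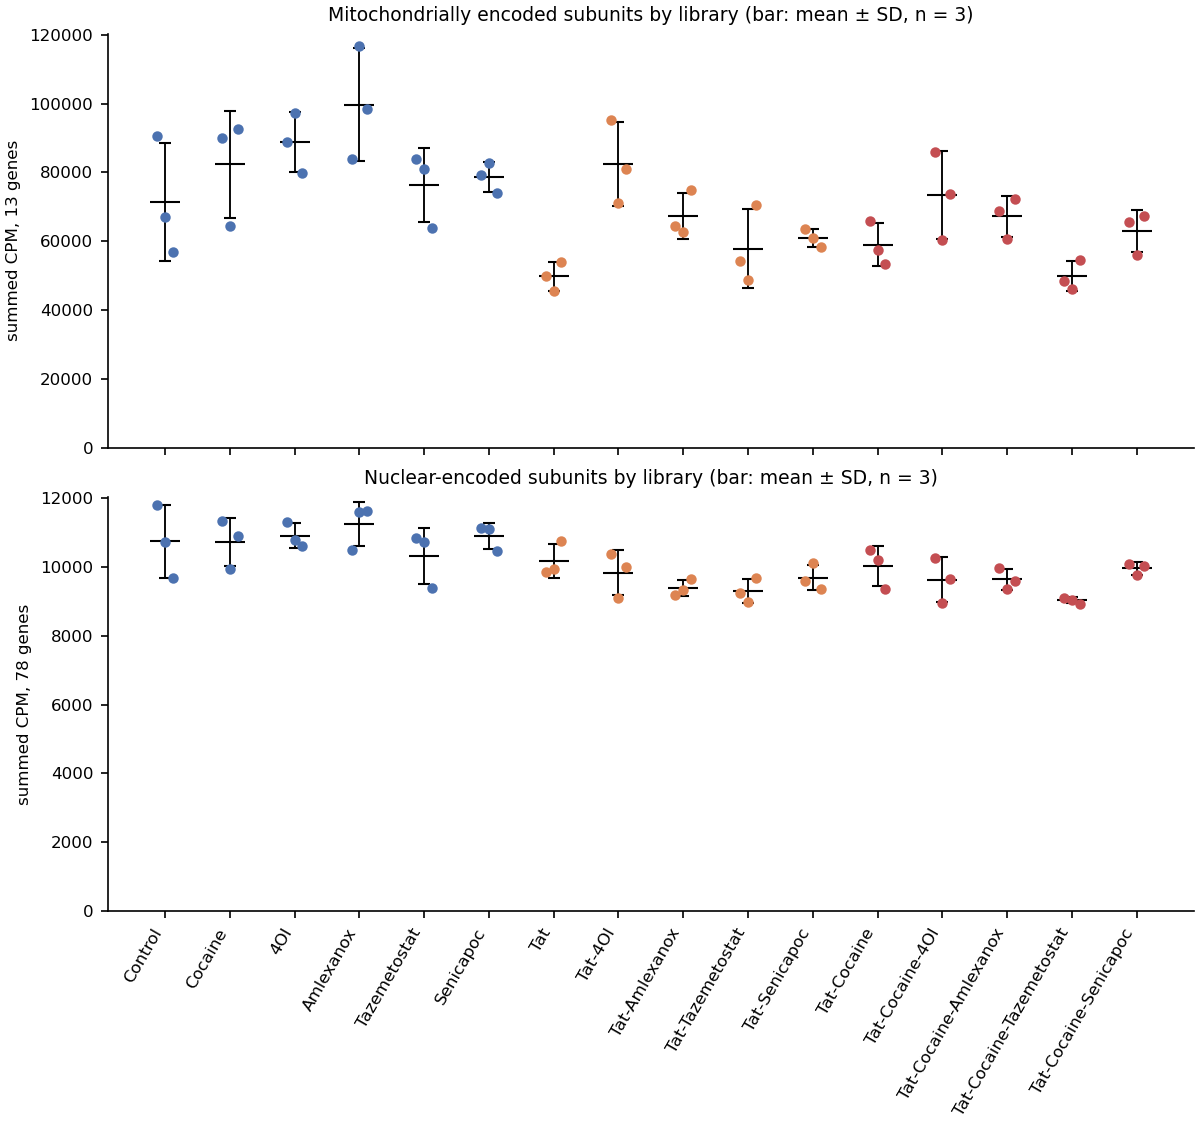
Summed level of the 13 mitochondrially encoded and of the 78 nuclear OXPHOS subunits in CPM, for each of the 48 libraries (points) by group, with the group mean. The highest mitochondrial sum was an Amlexanox library (116711 CPM) and the lowest a Tat library (45530 CPM), and the nuclear sums lay in a narrower band.

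With Tat, 12 of the 13 mitochondrially encoded subunits fell and none rose when the 15 Tat libraries were compared with the 15 without Tat over the 5 backgrounds (limma on log2(CPM + 0.5), Benjamini-Hochberg adjusted p under 0.05 over all genes). In this comparison 26.7% of all genes tested were called lower and 29.9% higher. The median log2 difference was -0.53 over the mitochondrial subunits and -0.00 over all genes. The largest decrease was that of Mt-nd6, a membrane subunit of complex I and the only subunit read from the other (light) strand of the mitochondrial genome. Mt-nd6 ranged from 407 to 958 CPM (median 564) with and 748 to 1257 CPM (median 979) without Tat, a log2 difference of -0.72 ± 0.07 (SE; adjusted p = 9.0e-10). The ranges overlapped, as did those of each other member called in this comparison.

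Further complex I subunits had decreases of a similar size. Mt-nd5, a proton-pumping subunit, ranged from 1541 to 3596 CPM (median 2061) with Tat and 2842 to 4588 CPM (median 3470) without (log2 difference -0.68 ± 0.08, SE, adjusted p = 3.3e-09). Mt-nd4, another pumping subunit, ranged from 193 to 628 CPM (median 336) with Tat and 395 to 736 CPM (median 530) without (log2 difference -0.65 ± 0.08, SE, adjusted p = 2.1e-08), and the log2 differences of its neighbours Mt-nd3 and Mt-nd4l were -0.66 ± 0.08 and -0.64 ± 0.08 (SE). Cytochrome b of complex III (Mt-cyb) had a log2 difference of -0.57 ± 0.08. The values of the ATP synthase subunits Mt-atp6 and Mt-atp8 were -0.53 and -0.52, and those of the cytochrome oxidase subunits Mt-co2 and Mt-co3 were -0.43 and -0.53. The smallest called decreases were those of Mt-nd2 (-0.32) and Mt-nd1, at 2804 to 4601 CPM (median 3265) with and 3202 to 4756 CPM (median 3702) without Tat (log2 difference -0.19 ± 0.06, SE, adjusted p = 0.0040). Mt-co1, the catalytic subunit of cytochrome oxidase, ranged from 15063 to 30662 CPM (median 20561) with and 14983 to 34901 CPM (median 23304) without Tat and did not pass the test (log2 difference -0.16 ± 0.11, SE, adjusted p = 0.21).

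The size of the difference followed the order of the genes along the mitochondrial genome. Among the 12 subunits of the heavy strand transcript, numbered from Mt-nd1 to Mt-cyb, the correlation of position with the pooled Tat log2 difference was -0.84 (Pearson) and -0.88 (Spearman). The median log2 difference was -0.38 for the first 6 genes and -0.65 for the last 6. For Tat against Control alone the correlations were -0.89 and -0.91, with medians of -0.43 and -0.86. These correlations are across genes that come from the same libraries and the same primary transcript, so the genes are not independent replicates. Reads of Mt-nd4l and Mt-nd4, and of Mt-atp8 and Mt-atp6, come from overlapping genes. Whether reads were counted by strand is not given in the sources used here, so that reads of Mt-nd6 cannot be told apart from those of the opposite strand there, and nuclear copies of mitochondrial genes may have taken some reads of all 13.

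**Figure D2:**
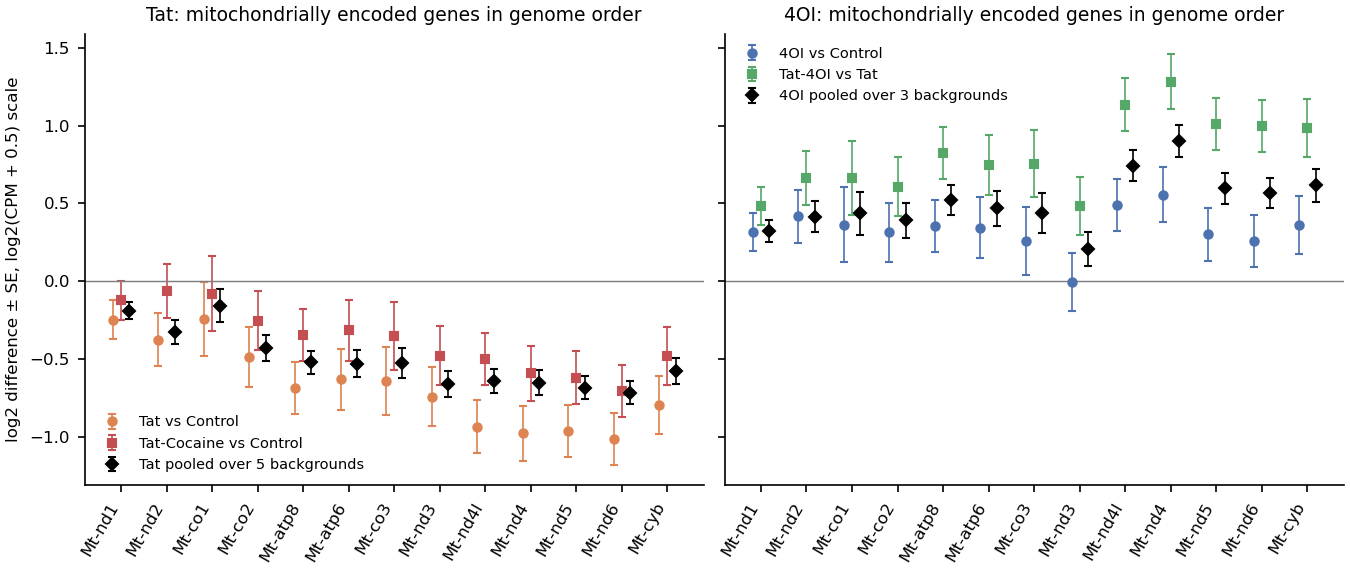
Log2 difference (± SE) of each mitochondrially encoded subunit, in the order of the genes along the mitochondrial genome, for Tat and for 4OI. The Tat differences go from -0.19 at Mt-nd1 to -0.68 at Mt-nd5 in the pooled comparison.

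Without a compound, 9 of the 13 mitochondrial subunits were lower in Tat than in Control cultures and none was higher, where 6.70% of all genes were called lower and 14.6% higher. Mt-nd4 was at 551, 405 and 395 CPM in Control and at 242, 193 and 249 CPM in Tat libraries (log2 difference -0.98 ± 0.18, SE, adjusted p = 1.1e-04). Mt-nd5 was at 3867, 3088 and 2842 CPM in Control and at 1623, 1541 and 1838 CPM with Tat (log2 difference -0.96 ± 0.17, SE, adjusted p = 7.2e-05). For both genes the libraries of the groups did not overlap, and Control replicate 1 was the highest. Mt-nd1 was at 3684, 3619 and 3202 CPM in Control and 2943, 3061 and 2844 CPM in Tat libraries, did not overlap either and did not pass the test (log2 difference -0.25 ± 0.12, SE, adjusted p = 0.15). Over all 91 members the 17 calls of this comparison became 9 without Control replicate 1 and 10 without Tat replicate 2.

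With Tat and cocaine together 4 mitochondrial subunits were lower than in Control and none was higher, beside 6.30% of all genes lower and 8.63% higher. They were Mt-nd4, Mt-nd4l, Mt-nd5 and Mt-nd6. Mt-nd5 was at 2406, 2095 and 1858 CPM in the Tat-Cocaine libraries, below the Control libraries throughout (log2 difference -0.62 ± 0.17, SE, adjusted p = 0.011), and its call was lost without Control replicate 1 or Tat-Cocaine replicate 3 (adjusted p = 0.070 to 0.082). The call of Mt-nd4 (-0.59 ± 0.18) was lost without Control replicate 1 or Tat-Cocaine replicate 2 or 3 (adjusted p = 0.056 to 0.14). The 13 members called, nuclear ones included, became 4 when Control replicate 1 or Tat-Cocaine replicate 2 was left out and 7 when Tat-Cocaine replicate 3 was.

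The ratio of Mt-nd5 to Mt-nd1 sets a late against an early gene of the same transcript within a library, and so does not depend on the scaling of the library. It was chosen after the values of both genes had been seen and is given without a test. In the 18 libraries without Tat it was 0.833 to 1.05, and in the 24 libraries with Tat but without 4OI 0.503 to 0.734, with no overlap. The 6 libraries with Tat and 4OI were at 0.728 to 0.864, which overlapped both ranges. In single groups the ratio was 1.05, 0.853 and 0.888 in Control, 0.551, 0.503 and 0.647 with Tat, and 0.782, 0.844 and 0.814 with Tat and 4OI. The Tat-4OI libraries were above each Tat library and below each Control library.

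**Figure D3:**
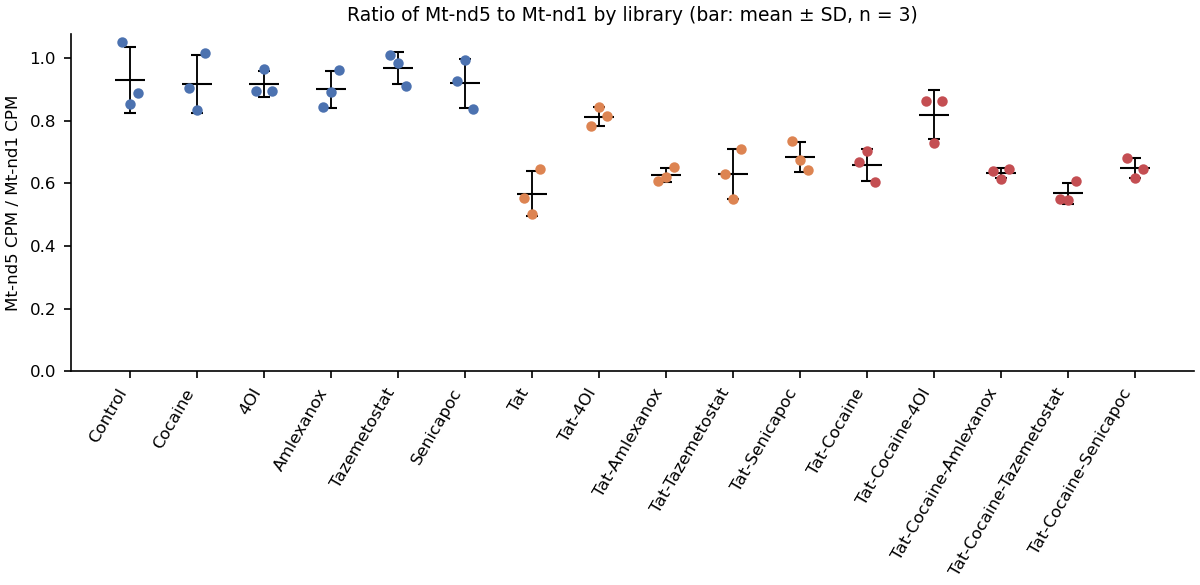
Ratio of the CPM of Mt-nd5 to that of Mt-nd1 in each of the 48 libraries (points) by group. Libraries without Tat lie at 0.833 to 1.05, libraries with Tat but without 4OI at 0.503 to 0.734, and libraries with both at 0.728 to 0.864.

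Of the 78 nuclear subunits 57 fell with Tat over the 5 backgrounds and 1 rose, beside 26.7% of all genes lower and 29.9% higher. The log2 difference was below 0 for 73 of the nuclear subunits. Their median log2 difference was -0.16, smaller than that of the mitochondrial subunits (-0.53). By complex, 27 of 35 nuclear subunits were lower in complex I (median -0.16) and 7 of 8 in complex III (-0.28). In complex IV 10 of 15 were lower (-0.21) and in the ATP synthase 12 of 16 (-0.17). In complex II 1 of 4 was lower (-0.07), near the share of all genes. The one rise was in complex IV. When libraries were rescaled over the genes other than the mitochondrially encoded ones, the members called became 82 in place of 70. That rescaling also moved the median of all genes from -0.003 to -0.07.

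**Figure D4:**
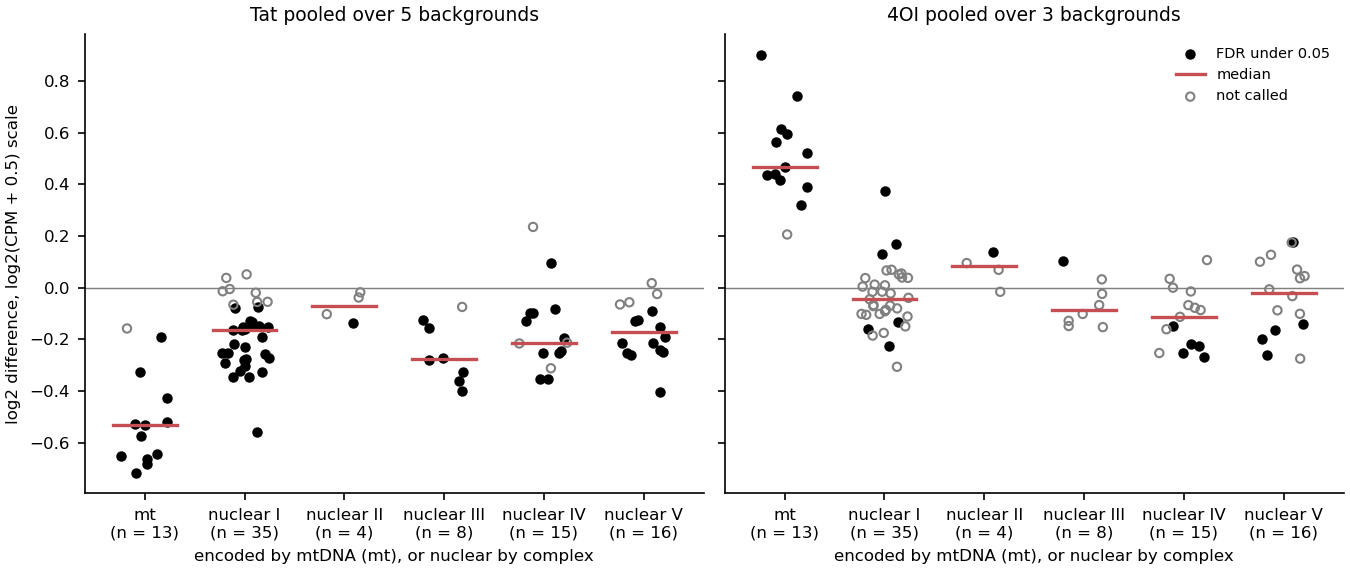
Log2 difference of each OXPHOS subunit with Tat over the 5 backgrounds, by complex, with mitochondrially encoded and nuclear subunits drawn apart. Complex II has no mitochondrial subunit, and with Tat its 4 genes have the median nearest to 0 (-0.07). With 4OI the nuclear median nearest to 0 is that of the ATP synthase (-0.02), and that of complex II is 0.08.

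Among the nuclear subunits the largest called decrease was that of Ndufa4l2, a paralog of Ndufa4 known as a hypoxia-induced gene, at 0.308 to 1.07 CPM (median 0.681) with and 0.604 to 1.77 CPM (median 1.20) without Tat (log2 difference -0.56 ± 0.10, SE, adjusted p = 1.0e-05). Its mean was near the minimum for a test. Atp5md, a small subunit of the membrane part of ATP synthase, ranged from 12.8 to 22.5 CPM (median 16.3) with and 14.5 to 29.5 CPM (median 20.8) without Tat (log2 difference -0.40 ± 0.08, SE, adjusted p = 1.0e-04). Uqcrc2, a core protein of complex III, ranged from 173 to 252 CPM (median 218) with and 226 to 349 CPM (median 287) without Tat (log2 difference -0.40 ± 0.05, SE, adjusted p = 2.0e-07). In all 3 genes the median with Tat was below that without, and the ranges overlapped.

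The other core subunits listed had the following values. Ndufs1 and Ndufv1, which carry redox centres of complex I, had log2 differences of -0.15 ± 0.03 (SE; adjusted p = 1.4e-04) and -0.23 ± 0.04 (SE; adjusted p = 1.4e-05). In complex II only Sdhc, a membrane anchor, passed the test (log2 difference -0.14 ± 0.03, SE, adjusted p = 4.2e-04), while the flavoprotein Sdha had -0.10 ± 0.05 (adjusted p = 0.072), the iron-sulfur subunit Sdhb -0.02 and the other anchor Sdhd -0.04. Uqcrc1 of complex III passed (-0.12, adjusted p = 5.6e-04) and the Rieske protein Uqcrfs1 did not (-0.07, adjusted p = 0.054). The catalytic β subunit of ATP synthase, Atp5f1b, had a value of -0.09 (adjusted p = 0.039) and the α subunit Atp5f1a of -0.06 (adjusted p = 0.071). The call of Atp5f1b was lost without Tat replicate 2, Control replicate 1, Amlexanox replicate 3, Tazemetostat replicate 1 or 2, 4OI replicate 1 or 2, Senicapoc replicate 1 or 2, Tat-Amlexanox replicate 1, Tat-Tazemetostat replicate 1 or 2, Tat-4OI replicate 2 or Tat-Senicapoc replicate 3 (adjusted p = 0.0503 to 0.089). Cox5a, a nuclear subunit of cytochrome oxidase, was the one member that rose, at 97.4 to 133 CPM (median 113) with and 90.8 to 127 CPM (median 107) without Tat (log2 difference 0.10 ± 0.04, SE, adjusted p = 0.032). That call was lost under each of 3 other scalings of the libraries (median ratio, quantile and rescaling without mitochondrial genes) and without Tat replicate 3, Control replicate 3, Amlexanox replicate 1, Tazemetostat replicate 3, 4OI replicate 3, Senicapoc replicate 3, Tat-Tazemetostat replicate 2 or Tat-Senicapoc replicate 2 (adjusted p = 0.052 to 0.073).

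Several subunits of complex IV exist as isoforms. The common forms fell with Tat, with Cox8a at 136 to 183 CPM (median 155) against 174 to 219 CPM (median 204) without Tat (log2 difference -0.35 ± 0.04, SE, adjusted p = 8.3e-09). The log2 differences were -0.10 ± 0.02 for Cox4i1, -0.25 ± 0.05 for Cox6a1 and -0.10 ± 0.03 for Cox6b1, all past the threshold. Cox7a2l, which is not the common form that pairs with Cox7a1, also passed (-0.13 ± 0.05). The call of Cox7a2l was lost without Tat replicate 1, Control replicate 1, Amlexanox replicate 2, Tazemetostat replicate 1 or Senicapoc replicate 2 (adjusted p = 0.0501 to 0.055). The isoforms Cox4i2, Cox6a2, Cox6b2 and Cox7a1, which are known from lung, muscle and testis, did not pass, with -0.22, 0.24, -0.31 and -0.21. Cox8b was under the minimum level, and no row of the name Cox7a2 was used. Ndufa4 fell by 0.34 on the log2 scale, from a median of 222 to 173 CPM.

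In Tat against Control without a compound, 7 of 78 nuclear subunits were lower (8.97%, beside 6.70% of all genes) and 1 was higher (1.28%, beside 14.6%), a median of -0.07. The share of nuclear subunits called lower was thus near that of all genes. The 8 calls became 4 without Control replicate 1 and 3 without Tat replicate 2. Uqcrc2 was at 343, 277 and 249 CPM in Control and at 206, 199 and 252 CPM in Tat libraries (log2 difference -0.40 ± 0.12, SE, adjusted p = 0.018). Tat replicate 3 was above Control replicate 3, and the call was lost without Control replicate 1 (adjusted p = 0.18), Tat replicate 1 (0.072) or Tat replicate 2 (0.12). Ndufs1 was at 153, 145 and 152 CPM in Control and 128, 110 and 124 CPM in Tat libraries with no overlap (log2 difference -0.32 ± 0.07, SE, adjusted p = 0.0013). The gene that rose was Atp5if1, which encodes an inhibitor of the ATP synthase working in reverse, at 130, 125 and 89.1 CPM in Control and 128, 158 and 160 CPM with Tat (log2 difference 0.39 ± 0.13, SE, adjusted p = 0.029). Its call was lost under the 3 other scalings (adjusted p = 0.053 to 0.14) and without Tat replicate 2 or 3 or Control replicate 3 (adjusted p = 0.090 to 0.23). The split of 1 higher and 7 lower became 0 and 26 when libraries were rescaled without the mitochondrial genes, a rescaling that moved the median of all genes to -0.11. The share of all genes called under it is not given, so the 26 cannot be set against that share. With Tat and cocaine against Control, 8 nuclear subunits were lower and 1 was higher, beside 6.30% and 8.63% of all genes, and these 9 calls became 3 without Control replicate 1 and 2 without Tat-Cocaine replicate 2.

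Promoter windows of the nuclear subunits were searched for the cores of sites bound by regulators of respiratory genes. RefSeq (build GRCr8) gave a window of 300 bases, from 250 before to 50 after the start, for 67 of the 78 nuclear members. The NRF1 core GCATGCGC was found on either strand in 8 of 67 (11.9%) against 2.77% of all 27457 genes with a window. The ETS core CCGGAAG bound by GABPA was in 18 (26.9%) against 9.63%, and the YY1 core ATGGCG in 21 (31.3%) against 11.1%. A gene counted if any of its windows matched. The 27457 genes had 33469 windows, while no member had more than 1, so the shares are not on quite the same footing. The letters TGACNNNGC of the antioxidant response element, searched after the values had been seen since 4OI is known to activate the factor that binds it, were in 7 (10.4%) against 13.1%. Matches of different motifs overlapped in 0 members. A match describes the letters of the window and was not tested as a binding site. The 150 bases before the start are printed, 5′ to 3′ on the strand of the gene with the matches in capitals, for Uqcrc2 and Cox8a, which fell with Tat, and for Atp5po and Ndufb4, which were higher with 4OI. The window of Uqcrc2 is chr1:184599090-184599239 (forward strand), that of Cox8a chr1:213833624-213833773 (reverse strand), that of Atp5po chr11:44657484-44657633 (reverse strand) and that of Ndufb4 chr11:76569028-76569177 (forward strand).
Uqcrc2 promoter: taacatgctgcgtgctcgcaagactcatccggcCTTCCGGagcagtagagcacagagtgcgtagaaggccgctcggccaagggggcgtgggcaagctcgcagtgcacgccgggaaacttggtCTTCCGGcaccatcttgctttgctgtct
Cox8a promoter: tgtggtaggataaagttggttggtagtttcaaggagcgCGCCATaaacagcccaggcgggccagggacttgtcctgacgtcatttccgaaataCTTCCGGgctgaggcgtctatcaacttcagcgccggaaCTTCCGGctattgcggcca
Atp5po promoter: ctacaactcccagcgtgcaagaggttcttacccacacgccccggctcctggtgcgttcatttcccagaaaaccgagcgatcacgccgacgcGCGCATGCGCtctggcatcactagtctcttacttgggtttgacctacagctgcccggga
Ndufb4 promoter: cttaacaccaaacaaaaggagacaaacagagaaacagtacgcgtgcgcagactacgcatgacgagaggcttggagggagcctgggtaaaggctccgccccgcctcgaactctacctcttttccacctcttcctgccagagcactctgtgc
In Uqcrc2 the capitals mark the ETS core on the opposite strand (CTTCCGG) 117 to 111 and 28 to 22 bases before the start. Cox8a has the ETS core on the opposite strand 57 to 51 and 19 to 13 bases and the YY1 core on the opposite strand (CGCCAT) 112 to 107 bases before the start. In Atp5po the capitals are the NRF1 core on both strands, overlapping, 59 to 50 bases before the start, and in Ndufb4 these letters are not in the 150 bases shown.

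Lists of genes that work with the subunits had calls in both directions with Tat pooled over the 5 backgrounds, as did all genes tested, of which 26.7% were lower and 29.9% higher. Of 42 assembly factors 19 were lower and 5 higher, with Tmem70, needed to build the ATP synthase, at a log2 difference of -0.49 ± 0.06 (SE; adjusted p = 4.4e-09), and with Uqcc2 of complex III at -0.40. Cytochrome c (Cycs, -0.32), cytochrome c1 (Cyc1, -0.23) and Ndufab1 (-0.19), subunits or carriers outside the rule, were lower, and Micos10 was not called (0.01). Of 12 genes of the tricarboxylic acid cycle 8 were lower and 2 higher, among them the succinyl-CoA ligase subunit Suclg2 (-0.39) and the isocitrate dehydrogenase subunit Idh3g (-0.29). Of 18 glycolysis genes 5 were lower, a share near that of all genes, and 3 higher, among them the lactate carrier Slc16a1 (log2 difference 1.66 ± 0.11, SE, adjusted p = 1.1e-14), hexokinase Hk2 (0.89), pyruvate kinase Pkm (0.43) and lactate dehydrogenase Ldhb (-0.35).

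Of 24 genes for the expression and upkeep of mitochondrial DNA 7 were higher, a share near the 29.9% of all genes in this comparison, and 3 were lower, beside 26.7%. They included the poly(A) polymerase Mtpap (0.22), the mRNA-stabilizing Lrpprc (0.15), the rRNA methyltransferase Tfb1m (-0.25) and Fastk (-0.18), which binds Mt-nd6 mRNA. Among 9 regulators of respiratory genes 4 were higher and 2 lower, with the coactivators Pprc1 (log2 difference 0.52 ± 0.06, SE, adjusted p = 1.8e-09) and Ppargc1b (0.30) higher and Ppargc1a lower (log2 difference -0.41 ± 0.07, SE, adjusted p = 1.2e-05). Mitochondrial chaperones and proteases had 1 higher (Spg7, 0.12) and 2 lower (Hspe1, -0.24, and Clpp, -0.14) of 9. Of 88 cytosolic ribosomal protein genes, which are also short and abundant, 29 were higher, again near the share of all genes, and 4 lower, with a median of 0.09.

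Markers of cell types moved in the same comparison. Of 10 neuron markers 7 were lower and none was higher with Tat (median -0.37), and their sum was 1340 to 4273 CPM (median 2971) with and 2502 to 4701 CPM (median 3550) without Tat. Of 8 astrocyte markers 4 were lower and 2 higher, with sums of 6735 to 10829 CPM (median 9284) and 5787 to 14256 CPM (median 12154). Of 10 markers of microglia and macrophages 4 were higher and 1 lower, with sums of 707 to 4295 CPM (median 1873) and 821 to 2306 CPM (median 1586), and 3 of 3 markers of cycling cells were higher. Of the 6 markers of oligodendrocytes and the 5 of their precursors none passed the test, and likewise none of the 2 endothelial and 2 ependymal genes tested, while of 3 fibroblast genes 1 was higher and 1 lower. The part of these shifts in the subunit results was not tested.

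Cocaine was followed by few calls among the subunits. In Cocaine against Control 0 of the 91 members passed the limma threshold, where 0.164% of all genes were called lower and 0.0378% higher. At an unadjusted p under 0.05 there were 0 mitochondrial and 4 nuclear members. The count was again 0 without Cocaine replicate 3, and it was 2 without Cocaine replicate 1, when Atp5mc1, a gene for the proton-carrying c ring (-0.34 with all libraries), and Ndufs1 were called lower. In Tat-Cocaine against Tat 0 members passed (2 mitochondrial and 5 nuclear at an unadjusted p under 0.05), beside 0.0189% of all genes higher and 0 lower. All 13 mitochondrial values were above 0 there, with a median of 0.31. Over the 5 backgrounds in which cocaine was added to Tat, Ndufb2 of complex I was the one member called, at 36.5 to 44.4 CPM (median 40.5) with and 30.9 to 41.5 CPM (median 38.1) without cocaine (log2 difference 0.13 ± 0.04, SE, adjusted p = 0.041), where 1.64% of all genes were higher and 2.91% lower. The ranges overlapped, and the call was lost without Tat replicate 1, 2 or 3, Tat-Cocaine replicate 3, Tat-Amlexanox replicate 3, Tat-Tazemetostat replicate 3, Tat-4OI replicate 1 or 2, Tat-Senicapoc replicate 1, Tat-Cocaine-Amlexanox replicate 1 or 2, Tat-Cocaine-Tazemetostat replicate 1 or 2, Tat-Cocaine-4OI replicate 1 or 3 or Tat-Cocaine-Senicapoc replicate 2 or 3 (adjusted p = 0.051 to 0.099).

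With 4OI mitochondrially encoded subunits were higher. Over the 3 backgrounds (Control, Tat and Tat-Cocaine, 9 libraries with and 9 without) 12 of 13 rose and none fell, with a median of 0.47 beside 0.01 over all genes, of which 11.02% were called higher and 11.8% lower. Mt-nd4 was at 443 to 736 CPM (median 574) with and 193 to 551 CPM (median 293) without 4OI (log2 difference 0.90 ± 0.10, SE, adjusted p = 2.5e-08), and Mt-nd4l at 555 to 1007 CPM (median 832) and 291 to 815 CPM (median 472), a log2 difference of 0.74 ± 0.10, SE, adjusted p = 4.9e-07. For both genes the ranges overlapped. The log2 differences were 0.62 for Mt-cyb, 0.60 for Mt-nd5, 0.57 for Mt-nd6 and 0.32 for Mt-nd1. Mt-co1 (log2 difference 0.44 ± 0.14, SE, adjusted p = 0.019) was also called. The 12 calls became 9 under quantile normalization, when Mt-co1, Mt-co2 and Mt-co3 were not called, and 8 with no filter on low genes, when Mt-atp6 was not called either. The one not called was Mt-nd3 (log2 difference 0.21 ± 0.11, SE, adjusted p = 0.18).

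The single backgrounds differed in their counts. In cultures with Tat, 11 of 13 mitochondrial subunits were higher with 4OI (median 0.76), beside 6.10% of all genes higher and 9.48% lower. Mt-nd4 was at 628, 515 and 516 CPM in Tat-4OI and at 242, 193 and 249 CPM in Tat libraries with no overlap (log2 difference 1.28 ± 0.18, SE, adjusted p = 4.9e-06), and Mt-nd5 at 3596, 3193 and 3264 CPM and 1623, 1541 and 1838 CPM (log2 difference 1.01 ± 0.17, SE, adjusted p = 8.4e-05). The 11 mitochondrial calls became 6 with no filter on low genes and 6 without Tat-4OI replicate 1. The 24 members called, nuclear ones included, became 11 without Tat replicate 2 and 13 without Tat-4OI replicate 1. In cultures with Tat and cocaine only Mt-nd4 and Mt-nd4l passed, beside 4.07% of all genes higher and 3.29% lower. Mt-nd4 was there at 640, 443 and 557 CPM with and 318, 293 and 277 CPM without 4OI and did not overlap (log2 difference 0.87 ± 0.18, SE, adjusted p = 0.0014). The 8 members called there became 2 without Tat-Cocaine replicate 1 or 2 and 1 without Tat-Cocaine-4OI replicate 3.

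Without Tat no mitochondrial subunit passed the limma threshold in 4OI against Control, where 2.47% of all genes were called higher and 0.686% lower. Before adjustment 5 of the 13 had a p under 0.05, and when Control replicate 1 was left out 2 passed the threshold. Mt-nd4 was at 663, 736 and 574 CPM with 4OI and at 551, 405 and 395 CPM in Control (log2 difference 0.55 ± 0.18, SE, adjusted p = 0.085), so that each 4OI library was above each Control library. Along the heavy strand transcript the correlation of position with the 4OI difference was 0.05 (Pearson) and 0.01 (Spearman) against Control and 0.72 and 0.74 in Tat-4OI against Tat, across 12 genes that share libraries. In the latter comparison the median was 0.66 for the first 6 genes and 1.00 for the last 6.

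The difference between the Tat response with and without 4OI was tested directly. None of the 91 members passed, where 0.0503% of all genes were called higher and 0.447% lower, and 5 mitochondrial and 11 nuclear members had an unadjusted p under 0.05. All 13 mitochondrial values were above 0 (median 0.49), with 0.73 ± 0.24 (SE; adjusted p = 0.17) for Mt-nd6, 0.71 ± 0.24 (SE; adjusted p = 0.19) for Mt-nd5 and 0.73 ± 0.25 (SE; adjusted p = 0.20) for Mt-nd4. The Tat response of Mt-nd5 was -0.96 without and -0.25 with 4OI. The comparisons of Tat with Control and of Tat-4OI with Tat share the Tat libraries. So do the other comparisons against Tat alone, in which the mitochondrial values were mostly above 0 as well. Their median was 0.43 with Amlexanox (13 of 13 above 0), 0.32 with Senicapoc (12), 0.20 with Tazemetostat (12) and 0.31 with cocaine (13).

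The nuclear subunits did not move together with 4OI. Over the 3 backgrounds 6 rose and 12 fell of 78 (7.69% and 15.4%), with a median of -0.07. Of all genes 11.02% were called higher and 11.8% lower in this comparison. There were 3 higher and 10 lower in Tat-4OI against Tat, beside 6.10% of all genes higher and 9.48% lower, and these 13 calls became 3 without Tat replicate 2, 6 without Tat-4OI replicate 2, 7 without either of the other Tat-4OI replicates and 8 without Tat replicate 3. In Tat-Cocaine-4OI against Tat-Cocaine 0 were higher and 6 lower, beside 4.07% and 3.29% of all genes, and the 6 calls became 0 without Tat-Cocaine replicate 1 or Tat-Cocaine-4OI replicate 3 and 1 without Tat-Cocaine replicate 2. The pooled split became 5 and 19 under median ratio scaling, 3 and 22 under quantile normalization and 4 and 19 when libraries were rescaled without the mitochondrial genes. By complex there were 3 higher and 3 lower in complex I, 1 higher in each of complexes II and III, 5 lower in complex IV, and 1 higher and 4 lower in the ATP synthase.

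Ndufb4, an accessory subunit of the membrane arm of complex I, had the largest called rise of the nuclear subunits over the 3 backgrounds. It was at 71.2, 67.2 and 69.5 CPM in Control and at 111, 100 and 105 CPM in 4OI libraries, with no overlap and a log2 difference of 0.60 ± 0.09 (SE; adjusted p = 1.1e-05). In Tat and Tat-4OI libraries it was at 70.9, 62.9 and 79.3 CPM and 95.0, 71.8 and 89.8 CPM, which overlapped (log2 difference 0.26 ± 0.09, SE, adjusted p = 0.032). The latter call was lost without Tat replicate 1 or 2 or Tat-4OI replicate 1 or 3 (adjusted p = 0.069 to 0.27). In Tat-Cocaine and Tat-Cocaine-4OI libraries it was at 73.9, 71.2 and 69.4 CPM and 96.4, 75.2 and 86.1 CPM and did not overlap (log2 difference 0.26 ± 0.09, SE, adjusted p = 0.060). The pooled value was 0.37 ± 0.05 (SE; adjusted p = 5.3e-07).

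**Figure D5:**
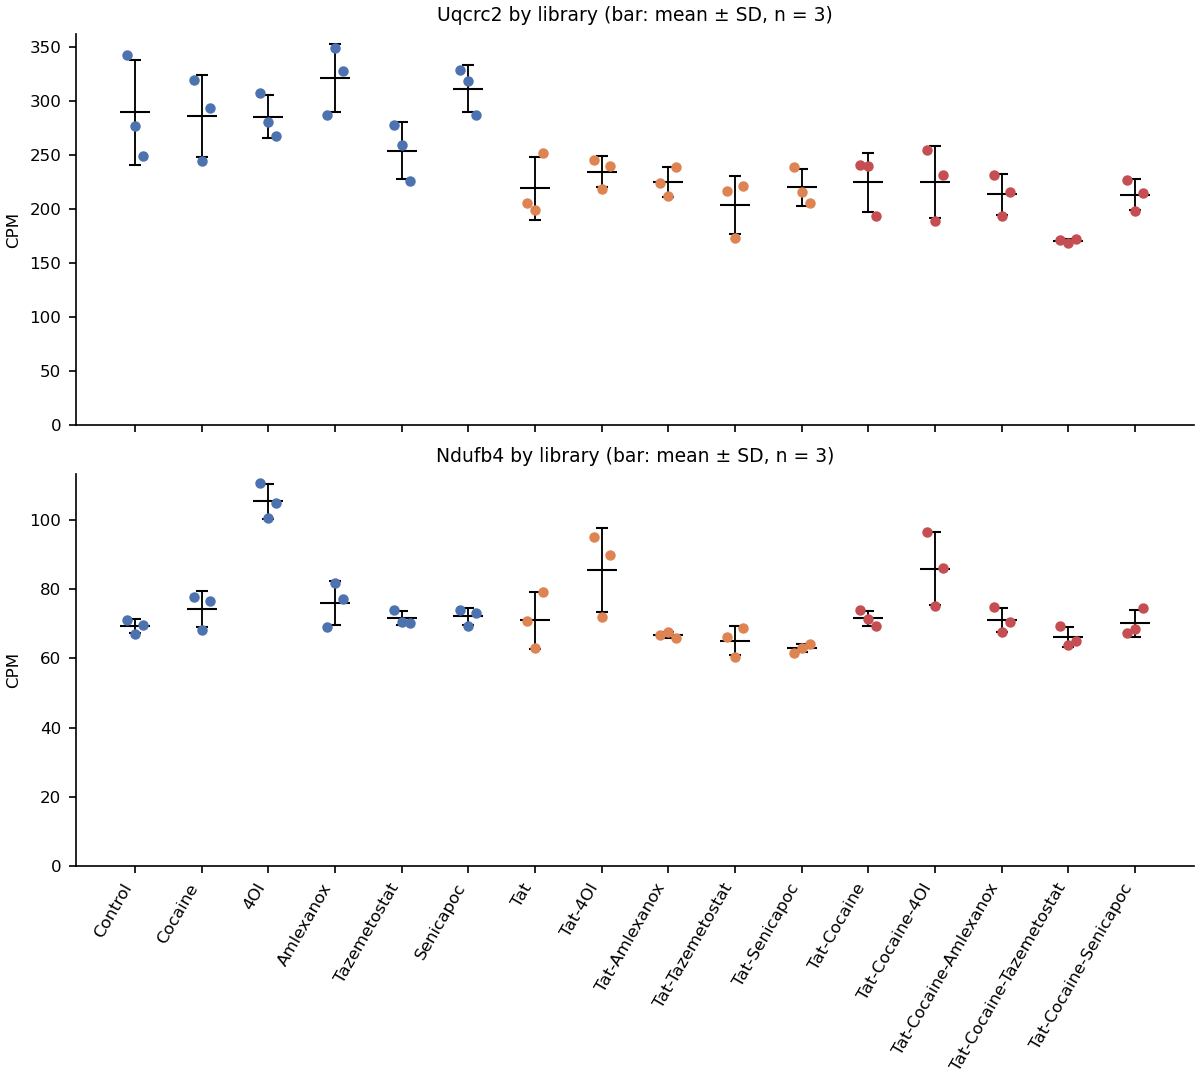
Level of Uqcrc2 and Ndufb4 in CPM in each of the 48 libraries (points) by group, with the group mean. Ndufb4 lies at 100 to 111 CPM in the 4OI libraries and at 67.2 to 71.2 CPM in Control, and Uqcrc2 at 173 to 252 CPM in the 15 Tat libraries without cocaine and at 226 to 349 CPM in the 15 without Tat and cocaine.

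Atp5po, which encodes the stalk protein OSCP of the ATP synthase, was the other nuclear subunit higher in 4OI than in Control, at 226, 218 and 203 CPM against 199, 178 and 168 CPM with no overlap (log2 difference 0.25 ± 0.07, SE, adjusted p = 0.034). The call was lost under the 3 other scalings (adjusted p = 0.10 to 0.25) and without Control replicate 2 or 3 or 4OI replicate 1 or 2 (adjusted p = 0.083 to 0.21), while without Control replicate 1 there were 5 members called. Pooled over the backgrounds Atp5po was at 175 to 226 CPM (median 191) with and 156 to 199 CPM (median 170) without 4OI (log2 difference 0.18 ± 0.04, SE, adjusted p = 9.2e-04). Ndufa9 (log2 difference 0.17 ± 0.04, SE, adjusted p = 0.0016), an accessory subunit of complex I, was also higher, as were Sdhc (0.14), Ndufs1 (0.13) and Uqcrc1 (0.10). Under quantile normalization Sdhc, Ndufs1 and Uqcrc1 were not called. The call of Ndufs1 was also lost without Tat replicate 2 or Tat-Cocaine-4OI replicate 1 or 3 (adjusted p = 0.052 to 0.059), and that of Uqcrc1 without Tat replicate 1 or 2, Control replicate 2 or 3, Tat-Cocaine replicate 2 or 3, 4OI replicate 1 or 2, Tat-4OI replicate 1 or 3 or Tat-Cocaine-4OI replicate 1 or 3 (adjusted p = 0.057 to 0.14). The largest called falls were those of Cox7b, a small subunit of cytochrome oxidase, at 69.7 to 95.5 CPM (median 81.5) with and 79.8 to 114 CPM (median 100) without 4OI (log2 difference -0.27 ± 0.06, SE, adjusted p = 0.0013), of Atp5mg (log2 difference -0.26 ± 0.05, SE, adjusted p = 9.5e-05), a small membrane subunit of the ATP synthase, and of Cox7a2l2 (-0.25), whose call was lost without Tat replicate 3, Control replicate 1 or 2, Tat-Cocaine replicate 1 or 2, 4OI replicate 2, Tat-4OI replicate 2 or Tat-Cocaine-4OI replicate 2 or 3 (adjusted p = 0.052 to 0.088). The core genes Cox5a (log2 difference -0.22 ± 0.05, SE, adjusted p = 0.0013) and Cox4i1 (log2 difference -0.15 ± 0.03, SE, adjusted p = 5.3e-04) fell as well.

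Among related genes the counts stand beside 11.02% of all genes higher and 11.8% lower. With 4OI 6 of 42 assembly factors were higher and none lower, such as Nubpl, which inserts iron-sulfur clusters into complex I (0.26), and Atpaf2 of the ATP synthase (0.24). In the tricarboxylic acid cycle 2 of 12 were higher, among them the succinyl-CoA ligase subunit Suclg1 (0.30). Of 18 glycolysis genes 6 were higher and 1 lower, including the glucose carrier Slc2a1 (log2 difference 0.93 ± 0.11, SE, adjusted p = 2.7e-08), Eno1 (0.39), Pkm (0.33) and Hk1 (0.26). Of 24 genes for mitochondrial DNA expression 4 were higher and 1 lower, with Tfam, which packages the mitochondrial genome, at 0.12, the helicase Twnk at 0.21 and the RNA-degrading Supv3l1 and Pnpt1 at 0.17 and -0.20. Of the 9 regulators Ppargc1a was higher (0.29) and Ppargc1b lower (-0.37), and of the 9 chaperones and proteases Hspd1 (0.34) and Afg3l2 (0.36) were higher. Micos10 was lower (-0.18), and of 88 ribosomal protein genes 24 were lower and 1 was higher, with a median of -0.17.

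The sum of the 10 markers of microglia and macrophages was 494 to 1912 CPM (median 886) with 4OI and 1184 to 2815 CPM (median 1781) without, and 6 of the 10 were lower. Of 8 astrocyte markers 3 were higher, with sums of 8943 to 13691 CPM (median 10829) and 6999 to 12477 CPM (median 8901). Of the 10 neuron markers none passed, with sums of 1652 to 3864 CPM (median 3325) and 1576 to 4327 CPM (median 2870), and of 3 markers of cycling cells 2 were lower. The part of these shifts in the subunit results was not tested.

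With Amlexanox 8 of the 13 mitochondrial subunits were higher and none lower over the 3 backgrounds (median 0.37), where 4.12% of all genes were called higher and 3.88% lower. Mt-nd4 was at 347 to 723 CPM (median 390) with and 193 to 551 CPM (median 293) without Amlexanox, overlapping (log2 difference 0.48 ± 0.10, SE, adjusted p = 0.0028). Mt-nd4l (0.46), Mt-co1 (0.45), Mt-atp8 (0.44), Mt-atp6 (0.40), Mt-co2 (0.38), Mt-cyb (0.37) and Mt-nd2 (0.35) also passed. The values not past the threshold were 0.12 for Mt-nd5, 0.13 for Mt-nd6, 0.11 for Mt-nd1, 0.00 for Mt-nd3 and 0.37 for Mt-co3 (adjusted p = 0.059). The 8 calls became 3 under quantile normalization (median 0.21) and 3 with no filter on low genes. They became 3 without Tat replicate 2, 4 without Tat-Cocaine-Amlexanox replicate 3, and 5 without Control replicate 2 or 3, Amlexanox replicate 2, Tat-Amlexanox replicate 3 or Tat-Cocaine-Amlexanox replicate 1. The nuclear Ndufs7, which carries an iron-sulfur cluster of complex I, was at 42.7 to 61.9 CPM (median 50.2) with and 51.2 to 75.0 CPM (median 60.3) without Amlexanox (log2 difference -0.28 ± 0.06, SE, adjusted p = 0.0040), and Ndufs8, which carries others, also fell (log2 difference -0.17 ± 0.04, SE, adjusted p = 0.012). Of the 10 neuron and 10 microglia markers none passed, and of 8 astrocyte markers 1 was lower.

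In Amlexanox against Control 2 mitochondrial subunits were higher, and 3 nuclear subunits were higher and 2 lower, beside 3.75% of all genes higher and 7.60% lower. Mt-nd2 was at 5081, 8271 and 6466 CPM with Amlexanox and 5555, 4512 and 3584 CPM in Control, overlapping (log2 difference 0.53 ± 0.17, SE, adjusted p = 0.039). This call was lost without Control replicate 2 or 3 or Amlexanox replicate 2 or 3 (adjusted p = 0.085 to 0.31). Sdhc was at 175, 161 and 143 CPM and 208, 202 and 210 CPM with no overlap (log2 difference -0.37 ± 0.07, SE, adjusted p = 9.8e-04), and Atp5if1 at 135, 159 and 175 CPM and 130, 125 and 89.1 CPM (log2 difference 0.45 ± 0.13, SE, adjusted p = 0.019), the latter lost without Control replicate 3 or Amlexanox replicate 2 or 3 (adjusted p = 0.058 to 0.26). The count of 7 rested on single libraries, being 22 without Control replicate 1, 18 without Amlexanox replicate 1, 4 without Control replicate 2, 2 without Control replicate 3 or Amlexanox replicate 2, and 1 without Amlexanox replicate 3.

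In cultures with Tat, Mt-nd4 and Mt-nd4l were higher with Amlexanox, and Atp5f1e and Uqcrq lower, beside 0.403% of all genes higher and 0.434% lower. Mt-nd4 was at 349, 371 and 387 CPM in Tat-Amlexanox libraries against 242, 193 and 249 CPM with Tat (log2 difference 0.70 ± 0.18, SE, adjusted p = 0.047) and did not overlap. Atp5f1e, the ε subunit of the ATP synthase, was at 84.0, 85.6 and 81.4 CPM and 100, 107 and 112 CPM, also with no overlap (log2 difference -0.34 ± 0.09, SE, adjusted p = 0.044). These 4 calls became 7 with the replicate number as a block, a comparison in which the numbers pair the libraries, 2 without Tat replicate 1 and 0 without any one of the 5 others. In cultures with Tat and cocaine 0 members passed (0.346% of all genes were higher and 0.579% lower, and 1 mitochondrial and 5 nuclear members had an unadjusted p under 0.05), and 1 did without Tat-Cocaine replicate 3. The Tat response with Amlexanox differed from that without in 3 nuclear subunits, Sdhc upward and Atp5if1 and Atp5f1e downward, beside 1.41% of all genes upward and 0.428% downward. For Tazemetostat and for Senicapoc the same test called 0 of all genes, with 271 and 762 genes and 3 and 4 nuclear members at an unadjusted p under 0.05.

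Tazemetostat was followed by lower nuclear subunits in cultures with Tat and cocaine. In Tat-Cocaine-Tazemetostat against Tat-Cocaine 16 nuclear subunits fell and none rose (median -0.13), and 1 mitochondrial subunit fell, beside 13.4% of all genes lower and 15.2% higher. Mt-nd3 was at 393, 414 and 444 CPM with and 780, 706 and 465 CPM without Tazemetostat, with no overlap (log2 difference -0.61 ± 0.19, SE, adjusted p = 0.019). Ndufa4 was at 157, 150 and 155 CPM and 223, 250 and 175 CPM (log2 difference -0.47 ± 0.12, SE, adjusted p = 0.0097), and Sdha at 249, 210 and 230 CPM and 321, 278 and 266 CPM (log2 difference -0.33 ± 0.11, SE, adjusted p = 0.027). For the last 2 genes the libraries did not overlap either. The largest called falls among nuclear subunits were those of Atp5md (-0.70), Ndufa4l2 (-0.68) and Cox7a2l2 (-0.50). The 17 calls became 0 without Tat-Cocaine replicate 1 or Tat-Cocaine-Tazemetostat replicate 2, 1 without Tat-Cocaine replicate 2, 11 without Tat-Cocaine-Tazemetostat replicate 1 and 32 without Tat-Cocaine replicate 3. With all libraries the 1 mitochondrial and 16 nuclear decreases became 8 and 25 under quantile normalization, 3 and 21 under median ratio scaling and 3 and 32 when libraries were rescaled without the mitochondrial genes. The last of these rescalings moved the median of all genes from 0.02 to -0.06.

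In the same comparison 9 of 10 neuron markers were lower, with sums of 1125, 1469 and 1704 CPM with Tazemetostat against 2441, 3016 and 3138 CPM without, in ascending order. The sums of the microglia markers were 2708, 3041 and 4291 CPM against 1184, 1781 and 1960 CPM, and 5 of 10 were higher. The sums of the oligodendrocyte markers were 158, 228 and 254 CPM against 433, 787 and 1939 CPM. None of these sums overlapped between the groups, and their part in the subunit result was not tested.

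Over the 3 backgrounds 15 nuclear subunits and no mitochondrial subunit fell with Tazemetostat, beside 4.65% of all genes lower and 6.75% higher (medians -0.08 for nuclear and -0.01 for mitochondrial subunits). They included Atp5md (-0.40), Sdha (log2 difference -0.26 ± 0.06, SE, adjusted p = 0.012), Ndufv1 (-0.24), Ndufs1 (-0.18) and both catalytic genes of the ATP synthase, Atp5f1b (log2 difference -0.22 ± 0.05, SE, adjusted p = 0.0058) and Atp5f1a (-0.16). Of the 10 neuron markers 2 were lower (sums of 1125 to 3293 CPM with, 1576 to 4327 CPM without) and of the 10 microglia markers 3 were higher (1687 to 4295 CPM with, 1184 to 2815 CPM without). The 15 calls became 8 without Control replicate 1 or Tat-Tazemetostat replicate 2, 9 without Tat-Cocaine replicate 2 or Tat replicate 3, 27 without Control replicate 3 and 23 without Tat-Cocaine replicate 3. In Tazemetostat against Control and in Tat-Tazemetostat against Tat 0 of all genes passed the limma threshold, with 576 and 851 genes at an unadjusted p under 0.05, among them 0 and 2 mitochondrial and 7 and 13 nuclear members.

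Senicapoc was followed by 1 call over the 3 backgrounds, where 0.699% of all genes were lower and 0.459% higher. Ndufs5, an accessory subunit of complex I, was at 29.4 to 45.4 CPM (median 34.3) with and 35.7 to 49.4 CPM (median 43.2) without Senicapoc (log2 difference -0.24 ± 0.06, SE, adjusted p = 0.028), with overlapping ranges. The call was lost without Tat replicate 3, Control replicate 2, Tat-Cocaine replicate 1 or 2, Senicapoc replicate 1 or 3, Tat-Senicapoc replicate 3 or Tat-Cocaine-Senicapoc replicate 1 or 3 (adjusted p = 0.052 to 0.083). The count of 1 became 4 without Tat-Cocaine replicate 3, 3 without Tat replicate 1, Control replicate 1 or Senicapoc replicate 2, and 2 without Control replicate 3. The mitochondrial subunits had a median of 0.19 and none passed. In Tat-Senicapoc against Tat, Uqcrq, a small subunit of complex III, was at 70.6, 83.3 and 72.1 CPM against 90.2, 92.2 and 95.4 CPM with no overlap (log2 difference -0.30 ± 0.07, SE, adjusted p = 0.0496), beside 0.340% of all genes lower and 0.0692% higher, and the call was lost under the 3 other scalings and without Tat replicate 1, 2 or 3 or Tat-Senicapoc replicate 1 or 3 (adjusted p = 0.055 to 0.25). Against Control 0 of all genes passed (1378 at an unadjusted p under 0.05, 1 of them a nuclear member), and in cultures with Tat and cocaine 0 members did (10 nuclear at an unadjusted p under 0.05), beside 0.0126% of all genes higher and 0.0315% lower, and 2 did without Tat-Cocaine replicate 3.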

How the data were processed

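RNA was extracted from the 48 cultures, and the authors made directional poly(A) libraries, trimmed the reads with Trim Galore 0.4.5, aligned them with STAR 2.7.2 and counted them with featureCounts (Subread 1.5.3), according to the submitters' processing notes and the methods of the study. The sources name several genome builds, and no coordinate was taken from the files. The signal the authors deposited per gene and library is CPM scaled by TMM in edgeR. The library sums lay between 930399 and 1046892. The depth was read off from the value of 1 read, and 85.1 to 87.2% of values above 0 were whole reads within 0.02 read. Count tests were not run on these values. The table also holds log2 fold changes, p-values and FDRs of the authors' deposited edgeR comparisons, which were not used.

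The labels gave the group and replicate number of each library, and all 48 were used. The 15890 genes that reached 0.5 CPM in 3 or more of the 48 libraries were tested as log2(CPM + 0.5) with limma 3.58.1 in R 4.3.3 (lmFit, eBayes with a trend, 1 mean per group, all 48 libraries), in 26 contrasts with the Benjamini-Hochberg procedure over all genes and a threshold of 0.05. Differences on this scale understate those of low genes. The fit was run on simulated data for Tat against Control, with the same spread in all groups. Such data cannot test how a wider spread in a single group or library affects the calls. Members, gene lists and tests were chosen with earlier results of these data known. Named were all mitochondrial subunits, listed core and isoform subunits, up to 3 nuclear members with the largest rise and fall per comparison, and up to 4 genes with the smallest p per list. Atp5mc1 was named after its values had been seen, and 1 listed gene is not reported here.

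Within 5 of 16 comparisons all 3 pairs of equally numbered libraries deviated together (correlation over 0.1): Tat-Cocaine, 4OI, Tazemetostat and Senicapoc against Control, and Tat-Amlexanox against Tat. Alternatives were another pseudocount (1 CPM), no filter and a filter of 2 CPM, 3 other scalings, the replicate number as a block, a fit to the compared groups only, and leaving out each library. The share of all genes called was not recorded for these alternatives, so counts of members under them stand without it. Promoter windows were taken from RefSeq by symbol.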

Additional observations from a re-analysis of the deposited data

Results flagged for a closer look

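The Tat response of 3 subunits differed between cultures with and without Amlexanox by the interaction test of limma, in which 1.41% of all genes were called higher and 0.428% lower. Atp5if1, the ATP synthase inhibitor, was at 130, 125 and 89.1 CPM in Control, 128, 158 and 160 CPM in Tat, 135, 159 and 175 CPM in Amlexanox and 119, 123 and 119 CPM in Tat-Amlexanox libraries. Its response to Tat was 0.39 without and -0.37 with Amlexanox, a difference of -0.75 ± 0.18 (SE; adjusted p = 0.032). Sdhc was at 208, 202 and 210 CPM in Control, 169, 178 and 170 CPM in Tat, 175, 161 and 143 CPM in Amlexanox and 174, 173 and 175 CPM in Tat-Amlexanox libraries, a response of -0.26 without and 0.13 with Amlexanox (log2 difference 0.39 ± 0.10, SE, adjusted p = 0.040). For Sdhc all libraries of the 3 groups with an agent were below the Control libraries. Atp5f1e was at 121, 113 and 97.4 CPM in Control, 100, 107 and 112 CPM in Tat, 109, 123 and 121 CPM in Amlexanox and 84.0, 85.6 and 81.4 CPM in Tat-Amlexanox libraries, a response of -0.05 without and -0.49 with Amlexanox (-0.44 ± 0.12, SE, adjusted p = 0.0497). Leaving out 1 of the 12 libraries gave 0 to 12 members called in place of 3, and all 3 calls held only without Control replicate 1 (11 members called) or Amlexanox replicate 1 (12). The call of Atp5if1 was lost without Tat replicate 2 or 3, Control replicate 3, Amlexanox replicate 2 or 3 or Tat-Amlexanox replicate 1 or 2 (adjusted p = 0.057 to 0.19), that of Sdhc without Tat replicate 1, 2 or 3, Control replicate 2 or 3, Amlexanox replicate 2 or 3 or Tat-Amlexanox replicate 1, 2 or 3 (adjusted p = 0.054 to 0.21) and that of Atp5f1e without Tat replicate 1, 2 or 3, Control replicate 2 or 3, Amlexanox replicate 2 or 3 or Tat-Amlexanox replicate 1, 2 or 3 (adjusted p = 0.0504 to 0.25).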

How the results depend on the processing

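The members called with Tat over 5 backgrounds (70) and with 4OI over 3 (30) stayed within 1.5 times that count under all alternatives. Among the other comparisons, a fit to the compared groups only gave 4 in place of 17 members for Tat against Control, 0 in place of 13 for Tat-Cocaine against Control, 1 in place of 2 for 4OI and 0 in place of 7 for Amlexanox against Control, 7 in place of 24 for Tat-4OI, 0 in place of 4 for Tat-Amlexanox and 0 in place of 1 for Tat-Senicapoc against Tat. It gave 0 in place of 8 for 4OI and 8 in place of 17 for Tazemetostat in Tat-Cocaine cultures, and, pooled, 5 in place of 10 for Amlexanox, 4 in place of 15 for Tazemetostat, 0 in place of 1 for Senicapoc, 3 in place of 1 for added cocaine and 0 in place of 3 for the Tat response with and without Amlexanox; fewer libraries enter such a fit. Rescaling without mitochondrial genes gave 38 for Tat and 20 for Tat-Cocaine against Control, 35 for Tazemetostat in Tat-Cocaine cultures, 1 for 4OI against Control and 0 for Tat-Senicapoc. Quantile normalization gave 33 for Tazemetostat in Tat-Cocaine cultures, 5 for pooled Amlexanox, 2 for pooled Senicapoc, 1 for 4OI against Control and 0 for Tat-Senicapoc. Median ratio scaling gave 1 for 4OI against Control, 2 for Tat-Amlexanox and 0 for Tat-Senicapoc. Without a filter there were 4 for Amlexanox against Control, 1 for Tat-Amlexanox, 5 for pooled Amlexanox, 0 for added cocaine and 1 for the Tat response with and without Amlexanox. With the replicate block the count was 11 for Amlexanox against Control, 7 for Tat-Amlexanox, 6 for Tat-Senicapoc, 6 for pooled Senicapoc and 2 for added cocaine, and the block kept 143 of 143 calls of named genes. The cause of these shifts was not tested.

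Leaving out 1 library gave 9 to 21 members for Tat, 0 to 2 for Cocaine, 4 to 17 for Tat-Cocaine, 1 to 5 for 4OI and 1 to 22 for Amlexanox against Control. It gave 11 to 21 for Tat-4OI, 0 to 2 for Tat-Amlexanox and 0 to 1 for Tat-Senicapoc against Tat. In Tat-Cocaine cultures it gave 1 to 10 for 4OI, 0 to 1 for Amlexanox, 0 to 32 for Tazemetostat and 0 to 2 for Senicapoc. Pooled, it gave 67 to 74 for Tat, 26 to 38 for 4OI, 5 to 11 for Amlexanox, 8 to 27 for Tazemetostat, 0 to 4 for Senicapoc, 0 to 1 for added cocaine, and 0 to 12 for the Tat response with and without Amlexanox. Of 143 calls of named genes 99 held under each scaling, filter and pseudocount, 73 held with each library left out, and 0 reversed. A value of 0.5 CPM stood for few reads, which limits Ndufa4l2 and the rare isoforms.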
